A study of Mus musculus with 18 samples.

Results

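Interferon-stimulated genes are genes whose transcription rises when a cell senses interferon, the secreted alarm signal of viral infection. A list of 43 such genes, chosen by symbol, was followed in RNA of mouse hepatocytes, the metabolic cells of the liver. All 43 symbols were found among the 16873 genes of the deposited table. All 43 also passed the filter on low values (3 or more libraries with values of 10 or higher), as did 14455 genes in all. The list was split into 35 antiviral genes of the kind driven by ISGF3, the transcription factor of the type I interferon response, and 8 interferon-inducible GTPases (Gbp2, Gbp3, Gbp7, Igtp, Irgm1, Irgm2, Iigp1 and Gvin1).

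The hepatocytes came from Mtdh knockout mice (KO) and from wild-type mice of matched age (WT). Mtdh encodes metadherin, a protein known mainly for its part in tumour growth. Before RNA was extracted, cells of each genotype received TNFa, TGFb, or medium conditioned by Kupffer cells (CM). Kupffer cells are the resident macrophages of the liver, and those used had been given Py8119-EVPs. Py8119 is a mouse mammary tumour cell line. This gave 6 groups of 3 libraries, named below as TNFa WT 1 to 3 and so on, which the labels call biological replicates. All 6 groups are labelled as normal liver without tumour and all were treated, so the comparisons are of KO with WT under one treatment, and of treatments with each other, and none is with resting cells. Doses, treatment times, age in numbers, sex, genetic background, the part of Mtdh removed and whether each library of a group had its own mouse were not stated in the available sources, so p-values measure the spread between libraries, which may be technical.

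In KO libraries Mtdh had normalized values of 581 to 973, against 10063 to 13725 in WT libraries. The 12 hepatocyte markers listed summed to between 1847000 and 3772800 per library, and Alb alone made up 5.83% to 10.3% of all values. With TGFb the hepatocyte sums were 3612600 to 3772800 in KO and 2671300 to 2804700 in WT. With CM they were 3017300 to 3067100 in KO and 2291900 to 2388900 in WT, again without overlap. The genotypes overlapped with TNFa (1847000 to 1945600 in KO and 1941500 to 1995000 in WT). Markers of T and NK cells summed to 5.29 to 75.3, and those of B cells to 21.5 to 120. The plasmacytoid dendritic cell list summed to 790 to 1318, most of it Tcf4 (group means of 877 to 1113), while Siglech had group means of at most 5.23. The 15 macrophage and Kupffer cell markers summed to 7527 to 10568 in KO libraries and to 3556 to 5431 in WT libraries, with no overlap. Of the 12 hepatocyte markers, 3 were called higher and 2 lower in KO with TNFa, 7 and 0 with TGFb, and 5 and 0 with CM. Of 10 markers of sinusoidal endothelium, 4, 2 and 1 were called higher and 0 lower. The endothelial markers summed to 4277 to 6043 in KO and 2888 to 3974 in WT. Mitochondrial genes made up 3.84% to 7.44% of the values in KO and 2.97% to 5.81% in WT. Values are normalized signals, which summed to 21590463 to 26417977 per library, and 1 read was worth an estimated 0.688 to 1.25 units. They are not divided by gene length, so levels are compared between libraries and never between genes.

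Type I interferons bind the receptor of Ifnar1 and Ifnar2, which activates the kinases Jak1 and Tyk2. Their signal leads to the assembly of ISGF3, which holds Stat2 and Irf9 and binds the interferon-stimulated response element of antiviral genes. Type II interferon acts through gamma-activated sites, the classical route to the guanylate-binding proteins (Gbp genes) and immunity-related GTPases (Irgm1, Irgm2, Igtp, Iigp1), which attack the vacuoles of intracellular microbes. Hepatocytes respond to both kinds of interferon, and cells keep a lower, tonic level of many of these genes without infection.

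Promoters were searched for the core letters of both elements. RefSeq windows on GRCm38.p6, each from 250 bases before to 50 after a gene's start, were found for 34 of 43 members, 28 antiviral genes and 6 GTPases. No window was found for Usp18, Parp9, Parp14, Mx1, Mx2, Dhx58, Zbp1, Iigp1 and Gvin1. The 5 stretches below are printed in the direction of transcription, as examples with a match from genes followed library by library below. Other genes followed there are not printed. Of these, Rsad2, Irgm1 and Irgm2 had a response-element match. The windows of Irf9, Irf7, Trim25, Parp12, Rnf213, Helz2, Samd9l and Oasl1 had none. Capitals mark the core of the response element (GAAA, any 2 bases, GAAA, or the same on the other strand) and, in Igtp, of a gamma-activated site as well (TTC, any 3 bases, GAA).
Stat2 (chr10:128270248-128270315, plus strand): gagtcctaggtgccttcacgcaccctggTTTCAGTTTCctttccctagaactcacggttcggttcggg
Isg15 (chr4:156200845-156200926, minus strand): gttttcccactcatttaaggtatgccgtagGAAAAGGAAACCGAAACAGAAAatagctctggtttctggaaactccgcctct
Ifit1 (chr19:34640755-34640843, plus strand): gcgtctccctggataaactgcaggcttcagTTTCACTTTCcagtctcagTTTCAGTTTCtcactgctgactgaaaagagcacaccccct
Gbp2 (chr3:142620574-142620643, plus strand): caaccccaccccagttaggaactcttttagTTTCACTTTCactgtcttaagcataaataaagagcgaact
Igtp (chr11:58199481-58199561, plus strand): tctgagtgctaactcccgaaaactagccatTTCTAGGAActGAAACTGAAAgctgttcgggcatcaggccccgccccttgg
Stat2 has 1 match, which starts 222 bases before the start, Ifit1 has 2 (from 104 and 85 bases before it) and Gbp2 has 1 (from 59 bases before it). Isg15 has 3 overlapping matches from 78, 72 and 66 bases before the start. In Igtp a gamma-activated core from 45 bases before the start lies just ahead of a response-element core from 34 bases before it. Over the windows, counted once per gene, the response-element core was found in 17 of 34 members, made up of 11 of 28 antiviral genes (39.3%) and 6 of 6 GTPases, against 3.99% of the 27025 genes with a window. The gamma-activated core was found in 9 of 34 members (26.5%), against 9.55% of all. In 6 members both were found. A match is a description of letters and not a bound site.

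Averaged over treatments, 31 of 43 members were lower in KO than in WT and 1, Iigp1, was higher (limma, Benjamini-Hochberg adjusted p below 0.05 over all 14455 genes, here called). Of all genes tested, 9.53% were called lower and 11.2% higher in this comparison. The members were chosen with earlier results of these data known, so these shares describe the list and do not test it. The median difference of the members was -0.45 on the log2(value + 1) scale, which all differences below use, and that of all genes was -0.003. By class, 26 of 35 antiviral genes and 5 of 8 GTPases were called lower, with medians of -0.54 and -0.41. No test compared the classes. In bulk RNA, fewer cells that express a gene and less RNA per cell cannot be told apart.

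Within treatments, 13 of 43 members were called lower in KO with TNFa (3.70% of all genes) and 0 higher (4.19% of all genes). With TGFb 22 were lower (4.95%) and 2 higher (7.25%), and with CM 17 were lower (3.77%) and 1 higher (5.62%). When all libraries were scaled to equal totals, the median of all genes with TGFb moved from -0.011 to -0.12, and calls over all genes moved from 1048 higher and 716 lower to 830 and 1494. With CM they moved from 813 and 545 to 627 and 874, while the members gave 28 lower and 1 higher with TGFb and 19 and 1 with CM. Expressed as a share of WT, the group mean in KO had a median over members of 76.0% (TNFa), 63.8% (TGFb) and 73.3% (CM). The count with TNFa moved with 2 libraries: 4 members were called lower without TNFa WT 3 and 7 without TNFa KO 2. With CM the count of members called fell from 18 to between 11 and 14 when any 1 CM library was left out, with 11 without CM KO 2. The antiviral median was -0.40 with TNFa and -0.76 with TGFb, or -0.21 without TNFa WT 3 and -0.47 without TGFb WT 2. All 3 KO libraries lay below all 3 WT libraries for 18 members with TNFa, 23 with TGFb and 27 with CM, which held for 11.5%, 12.8% and 12.4% of all genes in turn. The reverse order was seen for 0, 1 (Iigp1) and 3 members (Iigp1, Oas1a and Sp100, the last pair not called). The share of all genes with the reverse order was not counted, so these counts have no baseline. Separation in the lower direction in every treatment was seen for 12 members (2.23% of all genes), namely Stat2, Usp18, Ifit1, Parp12, Parp14, Ifih1, Eif2ak2, Trim25, Trim30a, Rnf213, Helz2 and Irgm2. In all 3 treatments, 10 members were called lower (0.892% of all genes), which were Stat2, Ifit1, Parp14, Ifih1, Eif2ak2, Trim25, Rnf213, Helz2, Gbp2 and Irgm2.

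**Figure D1:**
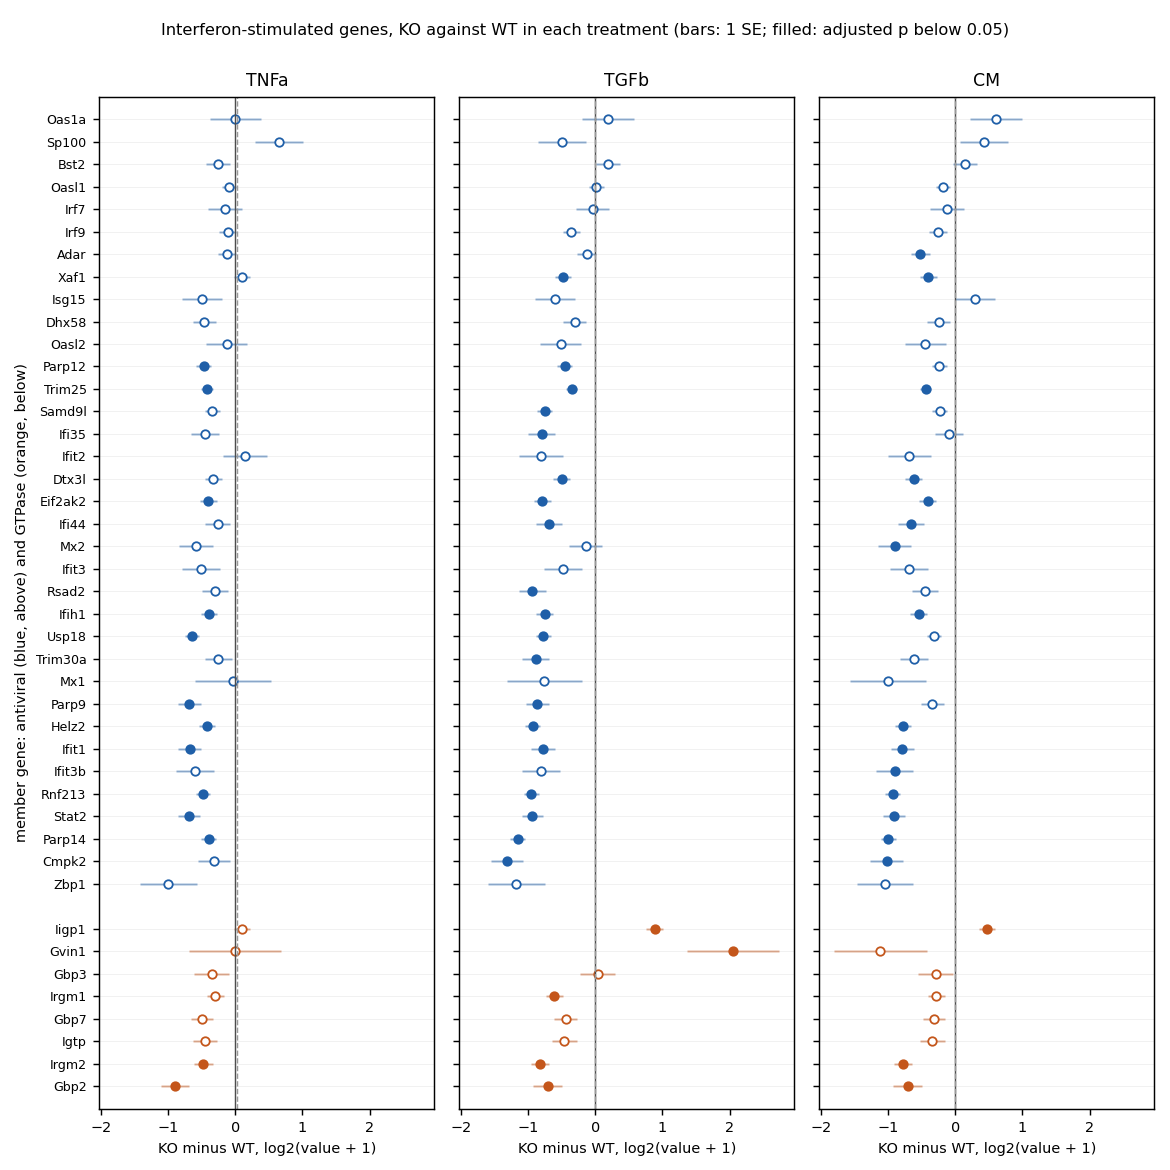
KO minus WT difference in log2(value + 1) of each of the 43 members with TNFa, TGFb and CM, with bars of 1 standard error from groups of 3 libraries. Filled points passed the adjusted p threshold of 0.05, the dashed line is the median of all genes tested, and most points lie left of 0 while Iigp1 and Gvin1 lie to the right with TGFb.

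Among the ISGF3 subunits and their regulators, Stat2 and Usp18 were called lower within treatments. Stat2, a subunit of ISGF3, had values of 1424, 1503 and 1892 in WT and 988, 766 and 1273 in KO with TNFa. With TGFb Stat2 read 929, 978 and 1080 in WT and 615, 536 and 423 in KO, and with CM 1576, 2057 and 1824 in WT and 924, 862 and 1110 in KO. Every KO library was below every WT library of its treatment. Stat2 (chromosome 10, 128106428 to 128128719 on mm39) fell by 0.69 ± 0.16 (SE) with TNFa, 0.94 ± 0.16 with TGFb and 0.91 ± 0.16 with CM (limma adjusted p = 0.00533, 8.99e-05 and 0.00022). The call with TNFa was lost without TNFa WT 3 (adjusted p = 0.0576), without TNFa KO 2 (0.0671) and when the groups were fitted alone (0.064). Irf9, its DNA-binding partner, was 1194, 1332 and 1260 in WT and 1313, 1031 and 1164 in KO with TNFa and 1057, 891 and 1202 in WT and 937, 845 and 682 in KO with TGFb, and these ranges overlapped. With CM Irf9 was 1054, 1042 and 1008 in WT and 832, 849 and 921 in KO, with every KO library lower. No single treatment passed for Irf9 (-0.12, -0.36 and -0.26, each ± 0.13, adjusted p = 0.69, 0.0782 and 0.268), and the average passed at -0.24 ± 0.076 (adjusted p = 0.0201) but not without TGFb WT 3 (0.0577) or TGFb KO 3 (0.0555).

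Irf7, the factor that amplifies interferon production, was read at 391.8, 399.3 and 476.8 in WT and 341.1, 342.8 and 462.1 in KO with TNFa. With TGFb Irf7 was 245.0, 300.5 and 221.8 in WT and 311.1, 178.0 and 271.6 in KO, and with CM 317.2, 331.7 and 356.4 in WT and 282.0, 207.9 and 493.9 in KO. These ranges overlapped in each treatment, and its averaged difference was -0.11 ± 0.14 (limma adjusted p = 0.678). Usp18, the protease that strips Isg15 from proteins and dampens the receptor, was 4672, 5164 and 5793 in WT and 3570, 3103 and 3272 in KO with TNFa. Usp18 with TGFb was 2711, 3234 and 3111 in WT and 1826, 1911 and 1558 in KO, and with CM 3541, 3046 and 3454 in WT and 2663, 2386 and 3022 in KO. It was lower in every KO library of each treatment, and fell by 0.65 ± 0.11 with TNFa and 0.78 ± 0.11 with TGFb (limma adjusted p = 0.000112 and 3.53e-06). With CM its difference of -0.32 ± 0.11 did not pass (adjusted p = 0.0576).

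**Figure D2:**
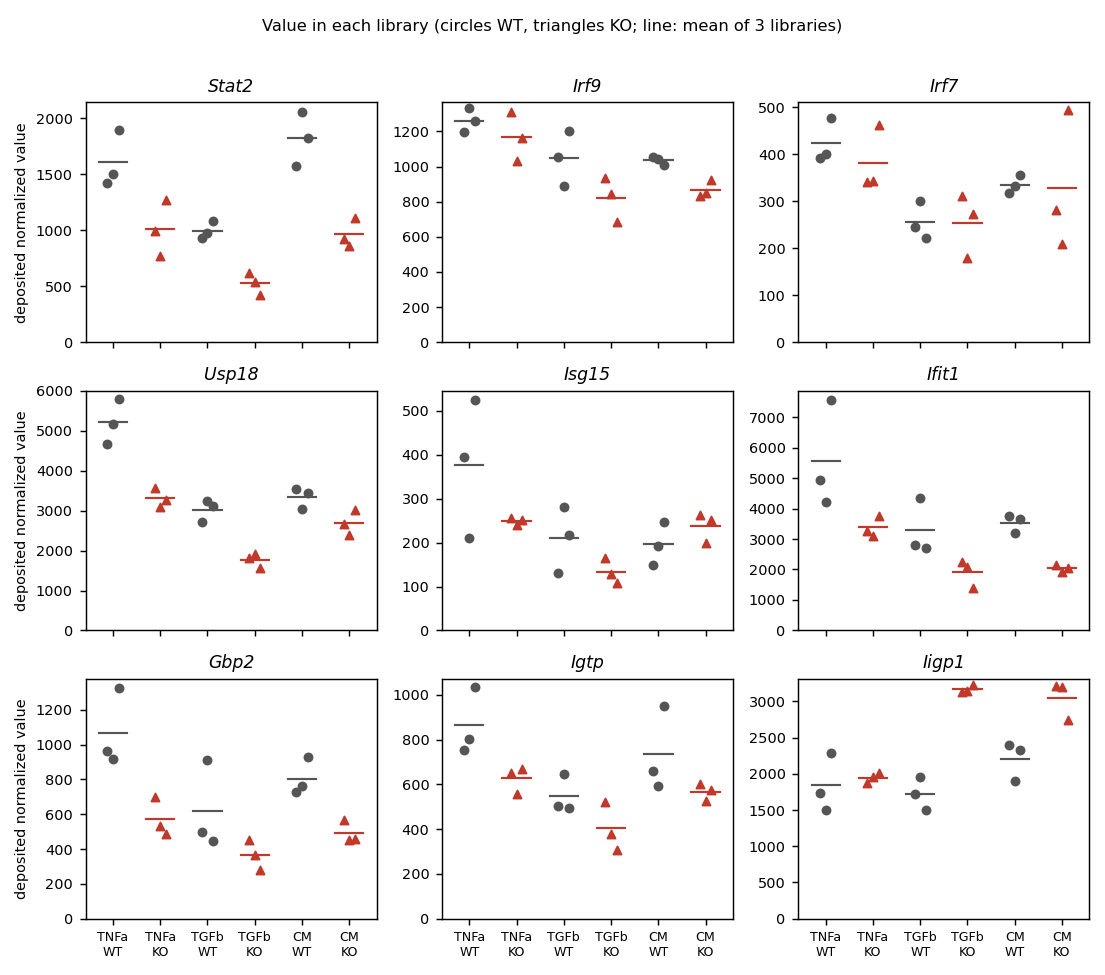
Deposited normalized value (linear axis from 0) of 9 members in each of the 18 libraries, WT as circles and KO as triangles, with lines at the mean of 3 libraries. Stat2, Usp18 and Ifit1 have every KO library below every WT library of the same treatment, Irf7 overlaps throughout, and Iigp1 is higher in KO with TGFb and CM.

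Isg15, the ubiquitin-like protein attached to targets in the response, overlapped between genotypes in every treatment. Its values were 395, 210 and 525 in WT and 255, 239 and 250 in KO with TNFa, 132, 281 and 218 in WT and 164, 129 and 109 in KO with TGFb and 149, 191 and 248 in WT and 262, 199 and 250 in KO with CM. The differences were -0.50, -0.60 and 0.30, each ± 0.30, and none passed (limma adjusted p = 0.371, 0.229 and 0.641). Trim25, a ubiquitin ligase that activates RNA sensing, gave a smaller spread. It read 8914, 7896 and 9326 in WT and 6799, 6138 and 6535 in KO with TNFa, 5306, 5617 and 5705 in WT and 4082, 4342 and 4630 in KO with TGFb and 7923, 7146 and 7139 in WT and 5346, 5581 and 5441 in KO with CM. Trim25 fell by 0.42, 0.35 and 0.44, each ± 0.083 (adjusted p = 0.00102, 0.00379 and 0.000525), and passed in each alternative setting run for these 3 comparisons.

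Among sensors of foreign RNA, Ifih1 (MDA5) and Eif2ak2 (PKR), which halts translation on double-stranded RNA, were called lower in all 3 treatments. Their differences were -0.40, -0.76 and -0.55 for Ifih1 (each ± 0.12) and -0.40, -0.79 and -0.41 for Eif2ak2 (each ± 0.125). The TNFa calls of both were near the threshold (limma adjusted p = 0.0418 and 0.0425). That of Ifih1 was lost without TNFa WT 2 or 3 or TNFa KO 1 or 3 (0.0923 to 0.229), and that of Eif2ak2 without any 1 of TNFa WT 2 and 3 and the 3 TNFa KO libraries (0.0514 to 0.202), and both were lost under several other settings. The Eif2ak2 call with CM was lost without any 1 of the 6 CM libraries (0.0557 to 0.125). Dhx58 (LGP2) passed only on average, at -0.34 ± 0.099 (adjusted p = 0.0131), as did Zbp1, a sensor of Z-form nucleic acids, at -1.08 ± 0.25 (adjusted p = 0.0015). Adar, which edits double-stranded RNA, passed with CM at -0.52 ± 0.14 (adjusted p = 0.0143), but not without CM WT 2 (0.0974) or CM KO 3 (0.0647).

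Ifit1, which binds viral RNA without a host cap, gave 4940, 4221 and 7557 in WT and 3274, 3112 and 3771 in KO with TNFa. For TGFb the Ifit1 values were 2799, 4345 and 2695 in WT and 2240, 2087 and 1380 in KO, and for CM 3754, 3200 and 3654 in WT and 2147, 1929 and 2050 in KO. Again every KO library lay below the WT libraries, and the highest value in its group was that of TNFa WT 3 with TNFa and of TGFb WT 2 with TGFb. Ifit1 fell by 0.68, 0.78 and 0.79, each ± 0.17 (limma adjusted p = 0.0111, 0.00191 and 0.00246). The first was lost without TNFa WT 3 (-0.44, adjusted p = 0.149) or TNFa KO 2 (0.0545), or with the groups fitted alone (0.0698). Ifit2 and Ifit3 were called in no treatment, and Ifit3b with CM only, at -0.90 ± 0.28 (adjusted p = 0.0345), a call lost without any 1 of the 6 CM libraries (0.056 to 0.108). Ifit3 and Ifit3b are close paralogs that could share reads.

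Rsad2 (viperin) and its neighbour Cmpk2, which make and feed a chain-ending nucleotide, were called lower with TGFb, and Cmpk2 also with CM. Rsad2 was 10009, 9180 and 17049 in WT and 9909, 8226 and 10209 in KO with TNFa, where the genotypes overlapped. With TGFb Rsad2 was 5306, 9664 and 4298 in WT and 3528, 3437 and 2589 in KO, and with CM 6653, 6564 and 7662 in WT and 5443, 4621 and 5248 in KO. It fell by 0.94 ± 0.20 with TGFb (limma adjusted p = 0.00103), or by 0.60 without TGFb WT 2, which is the highest library of its group. Cmpk2 fell by 1.32 ± 0.24 with TGFb and 1.02 ± 0.24 with CM (adjusted p = 0.000234 and 0.00516). Of the oligoadenylate synthetase family, Oasl1, Oasl2 and Oas1a were called in no KO comparison. Oasl1 differed by -0.097, 0.014 and -0.19, each ± 0.11. Mx1 and Mx2 encode dynamin-like GTPases that trap viral particles, and are placed here in the antiviral class. Mx1 was low (15.3 to 104 over all libraries) and not called, and Mx2 fell with CM by 0.90 ± 0.25 (adjusted p = 0.0181), a call lost without CM WT 2, CM KO 2 or CM KO 3 (0.0663 to 0.0804).

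Several large enzymes were called lower in all 3 treatments. Parp14, an ADP-ribosyltransferase, was 4654, 4600 and 5120 in WT and 3919, 3302 and 3704 in KO with TNFa. Parp14 under TGFb gave 2427, 3211 and 2371 in WT and 1048, 1377 and 1151 in KO, and under CM 4080, 4469 and 3834 in WT and 2121, 2052 and 2012 in KO. No KO library reached a WT library, and Parp14 fell by 0.40, 1.16 and 0.999, each ± 0.11 (limma adjusted p = 0.0224, 5.17e-09 and 1.9e-07). The TNFa call did not hold without TNFa WT 3 (0.115) or TNFa KO 2 (0.126), or after quantile normalization (0.0528). Rnf213, a giant ubiquitin ligase that coats intracellular bacteria, was 24630, 26092 and 26621 in WT and 20450, 15640 and 19633 in KO with TNFa. Under TGFb, Rnf213 was 13604, 16412 and 13690 in WT and 6222, 8445 and 7993 in KO, and under CM 28141, 27952 and 22789 in WT and 14200, 13115 and 13810 in KO. Rnf213 fell by 0.48, 0.95 and 0.93, each ± 0.11 (adjusted p = 0.00462, 1.81e-07 and 5.12e-07), the first not without TNFa KO 2 (0.0569).

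Helz2, a helicase, was 5777, 5562 and 6781 in WT and 4791, 3773 and 4998 in KO with TNFa. Helz2 in TGFb was 3416, 3920 and 3846 in WT and 1873, 2191 and 1800 in KO, and in CM 5279, 6035 and 4419 in WT and 2999, 2939 and 3155 in KO. These did not overlap, and Helz2 fell by 0.42, 0.93 and 0.78, each ± 0.11 (limma adjusted p = 0.016, 4.16e-07 and 1.51e-05). The TNFa call was lost without TNFa WT 3 (0.126) or TNFa KO 2 (0.15), and with the groups fitted alone (0.0767). Parp12, another ADP-ribosyltransferase, was 1961, 2121 and 2059 in WT and 1454, 1362 and 1625 in KO with TNFa, 1163, 1406 and 1190 in WT and 992, 890 and 854 in KO with TGFb and 1883, 1625 and 1817 in WT and 1561, 1384 and 1562 in KO with CM. It was lower in every KO library, and was called with TNFa (-0.47 ± 0.11, adjusted p = 0.00507) and TGFb (-0.46 ± 0.11, adjusted p = 0.00425) but not with CM. Parp9 and Dtx3l, which form one ADP-ribosylating ubiquitin ligase, were each called lower in 2 treatments, Parp9 with TNFa and TGFb and Dtx3l with TGFb and CM. The Parp9 call with TNFa was lost without TNFa WT 3 (0.0512), and the Dtx3l call with TGFb without TGFb KO 3 (0.0642).

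Samd9l, which restrains poxviruses, was 4153, 3941 and 4762 in WT and 3200, 3124 and 3813 in KO with TNFa. Samd9l with TGFb was 2688, 3192 and 2954 in WT and 1805, 1902 and 1532 in KO, the widest gap of the 3, and with CM 2742, 2793 and 3242 in WT and 2846, 2426 and 2209 in KO, where ranges overlapped. It was called with TGFb only, at -0.76 ± 0.11 (limma adjusted p = 9.76e-06). The remaining antiviral members showed both patterns. Trim30a, Ifi35, Ifi44 and Xaf1 were called lower with TGFb, and Ifi44 and Xaf1 also with CM. With the TGFb groups fitted alone, Trim30a (0.11), Ifi44 (0.0794) and Xaf1 (0.0528) were not called. The TGFb calls of Ifi35 and Ifi44 and the CM calls of Ifi44 and Xaf1 were each lost without 1 or more of their libraries: TGFb WT 3 or TGFb KO 1 for Ifi35, TGFb WT 2 or TGFb KO 3 for Ifi44 with TGFb, CM WT 1, CM KO 1 or CM KO 2 for Ifi44 with CM, and any 1 of the 3 CM WT libraries and CM KO 2 and 3 for Xaf1 (adjusted p = 0.0507 to 0.182). Bst2 (tetherin) and Sp100 were called in no KO comparison.

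The GTPases divided. Gbp2 was 964, 919 and 1325 in WT and 700, 530 and 485 in KO with TNFa. Gbp2 in the TGFb groups was 497, 910 and 446 in WT and 449, 364 and 281 in KO, and in the CM groups 728, 761 and 927 in WT and 565, 451 and 460 in KO. Genotypes overlapped with TGFb only, through TGFb KO 1 and TGFb WT 3. Gbp2 fell by 0.90, 0.71 and 0.71, each ± 0.21 (limma adjusted p = 0.00621, 0.0251 and 0.0306). These calls depended on single libraries: TNFa WT 3 (0.0648 without it), TGFb WT 2 (-0.39 without it, 0.277), TGFb KO 3 (0.165), and CM WT 2, CM WT 3, CM KO 2 or CM KO 3 (0.0575 to 0.117). The TGFb call was also lost with the groups fitted alone (0.155) and the CM call with no filter on low values (0.0541). Gbp genes lie in clusters of similar genes and could share reads. Gbp3 and Gbp7 were not called in any treatment, and Gbp7 passed on average (-0.42 ± 0.096, adjusted p = 0.00164).

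Irgm2, which guards the cell's own membranes from the effector GTPases, was 1908, 1730 and 2569 in WT and 1570, 1570 and 1275 in KO with TNFa. The Irgm2 values with TGFb were 1238, 1445 and 1295 in WT and 687, 849 and 707 in KO, and with CM 2058, 1611 and 1765 in WT and 961, 1013 and 1193 in KO. It was lower in every KO library and fell by 0.48, 0.83 and 0.78, each ± 0.14 (limma adjusted p = 0.0266, 5.29e-05 and 0.000223), the first not without TNFa WT 3 (0.239) or TNFa KO 3 (0.145) or with the groups fitted alone (0.109). Irgm1, of the same guarding kind, was 2571, 2690 and 3293 in WT and 2349, 1945 and 2689 in KO with TNFa. With TGFb Irgm1 was 1821, 2333 and 1974 in WT and 1399, 1335 and 1252 in KO, and with CM 1678, 2105 and 2040 in WT and 1495, 1809 and 1484 in KO. The genotypes separated with TGFb, where Irgm1 fell by 0.61 ± 0.13 (adjusted p = 0.000836), and overlapped otherwise. Igtp was 754, 803 and 1035 in WT and 653, 557 and 670 in KO with TNFa, 503, 645 and 495 in WT and 523, 378 and 309 in KO with TGFb and 659, 595 and 949 in WT and 603, 525 and 574 in KO with CM. Igtp separated with TNFa only, passed in no treatment, and passed on average (-0.42 ± 0.11, adjusted p = 0.0044). On mm39, Igtp (58090382 to 58098418) and Irgm2 (58090444 to 58113609) overlap on the plus strand of chromosome 11. Their reads could therefore be shared, and the values of these genes are uncertain to that extent.

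Iigp1, an effector that disrupts vacuoles, went the other way. With TNFa Iigp1 was 1731, 1508 and 2291 in WT and 1869, 1953 and 2014 in KO, which overlapped. In TGFb, Iigp1 was 1724, 1950 and 1499 in WT and 3130, 3144 and 3225 in KO, and in CM it was 2404, 1897 and 2326 in WT and 3210, 3200 and 2747 in KO, with every KO library higher. Iigp1 rose by 0.89 ± 0.12 with TGFb and 0.47 ± 0.12 with CM (limma adjusted p = 4.31e-06 and 0.012), and differed by 0.099 ± 0.12 with TNFa (adjusted p = 0.724). The CM call was lost without CM WT 2 (0.0944), CM KO 1 (0.0651) or CM KO 2 (0.0603). Gvin1 was 785, 1059 and 1112 in WT and 849, 1158 and 919 in KO with TNFa, 8.02, 488 and 67.6 in WT and 109, 473 and 412 in KO with TGFb and 1373, 1208 and 1197 in WT and 617, 617 and 510 in KO with CM. The WT libraries with TGFb spread from 8.02 to 488, and the KO libraries fell within that range. Gvin1 was called higher in KO with TGFb (2.05 ± 0.69, adjusted p = 0.0475), but not without TGFb WT 1 (0.60, adjusted p = 0.535), TGFb WT 3 (0.111), TGFb KO 2 (0.176) or TGFb KO 3 (0.178), and without TGFb WT 2 the difference was 3.49. It was also not called with a pseudocount of 0.5 (0.0547), no filter on low values (0.109), equal totals (0.0509), quantile normalization (0.0647) or the groups fitted alone (0.337). With CM every KO library was lower, and the difference of -1.12 ± 0.69 did not pass (adjusted p = 0.377). Gvin1 has close copies nearby, so its counts may be shared with them.

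The pathway upstream of the members was described from 5 lists. Of 12 interferon genes listed, 5 were in the table and 2 were tested, Ifnb1 and Ifnk, with group means of 2.75 to 9.24 and 13.7 to 44.2, and neither was called. None of the 6 receptor genes was called in KO with TNFa or CM, and 1 rose with TGFb (Ifnar2, 0.70 ± 0.19, limma adjusted p = 0.0119). That made up 16.7% of the list, against 7.25% of all genes called higher. Of 16 tested kinases, Stat and Irf genes, 2 were called lower with TNFa and 2 with CM (12.5% each, against 3.70% and 3.77% of all genes) and 0 with TGFb. Among them Stat3 fell with TNFa by 0.33 ± 0.091 (adjusted p = 0.022) and with CM by 0.30 ± 0.091 (adjusted p = 0.0346). In this list, 1 gene was called higher with TNFa (Jak3, 1.55 ± 0.48) and 1 with TGFb (Irf8, 1.54 ± 0.46). Each made up 6.25% of the list, against 4.19% and 7.25% of all genes. Of 15 sensing genes, 1 was called lower with TNFa (6.67%), 3 with TGFb (against 4.95% of all genes) and 2 with CM (13.3%, against 3.77%). Rigi (RIG-I) fell in all 3 treatments (-0.41, -0.54 and -0.58, each ± 0.12). Zc3hav1, which binds viral RNA, fell with TGFb by 0.67 ± 0.094 and with CM by 0.31 ± 0.094, and Tlr3 fell with TGFb by 0.575 ± 0.16. Tlr7 rose with TNFa by 1.43 ± 0.41 and with TGFb by 1.36 ± 0.41, and Tlr9 rose with TNFa by 3.49 ± 0.94. Higher calls made up 13.3% of the sensing genes with TNFa and 6.67% with TGFb, against 4.19% and 7.25% of all genes. Of 13 negative regulators, 1 was called, Tnfaip3, which rose with TGFb (0.45 ± 0.098, limma adjusted p = 0.00172). That made up 7.69% of its list, near the 7.25% of all genes called higher.

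Of 72 other antiviral genes, 2 were called higher and 7 lower in KO with TNFa, 6 and 9 with TGFb, and 2 and 12 with CM, with medians of -0.083, -0.030 and -0.22. The lower calls made up 9.72%, 12.5% and 16.7% of the list, against 3.70%, 4.95% and 3.77% of all genes. The higher calls made up 2.78%, 8.33% and 2.78%, against 4.19%, 7.25% and 5.62% of all genes. Averaged over treatments, this list was more mixed than the members, with a median of -0.13. On that average 21 of the 72 were called lower (29.2%, against 9.53% of all genes) and 13 higher (18.1%, against 11.2%). Trim12c fell by 1.05 ± 0.16 with TGFb and Ddx60 by 0.88 ± 0.14 with CM, whereas Slfn5 rose by 0.76 ± 0.14 with TNFa and 0.93 ± 0.14 with TGFb, and Lgals9 by 0.73 ± 0.099 with TGFb. Of 17 other GTPases of the family, 1 was called higher with TNFa and 0 lower, 1 higher and 2 lower with TGFb (Gbp10 higher, Ifi47 and Tgtp1 lower), and 1 higher and 0 lower with CM. Higher calls made up 5.88% of this list in each treatment, against 4.19%, 7.25% and 5.62% of all genes. Lower calls with TGFb made up 11.8%, against 4.95% of all genes.

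Macrophage markers moved with the genotype in the direction opposite to most members. Of the 15, none was called lower in KO, and 9 (TNFa), 10 (TGFb) and 9 (CM) were called higher. Those made up 60.0%, 66.7% and 60.0% of the list, against 4.19%, 7.25% and 5.62% of all genes. Clec4f, which marks Kupffer cells, had group means of 37.2 to 95.4 in WT and 174 to 349 in KO, while Timd4 was at 0 in all 3 TGFb WT libraries. Macrophages also express interferon-stimulated genes, and the part of these cells in the results was not tested.

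**Figure D3:**
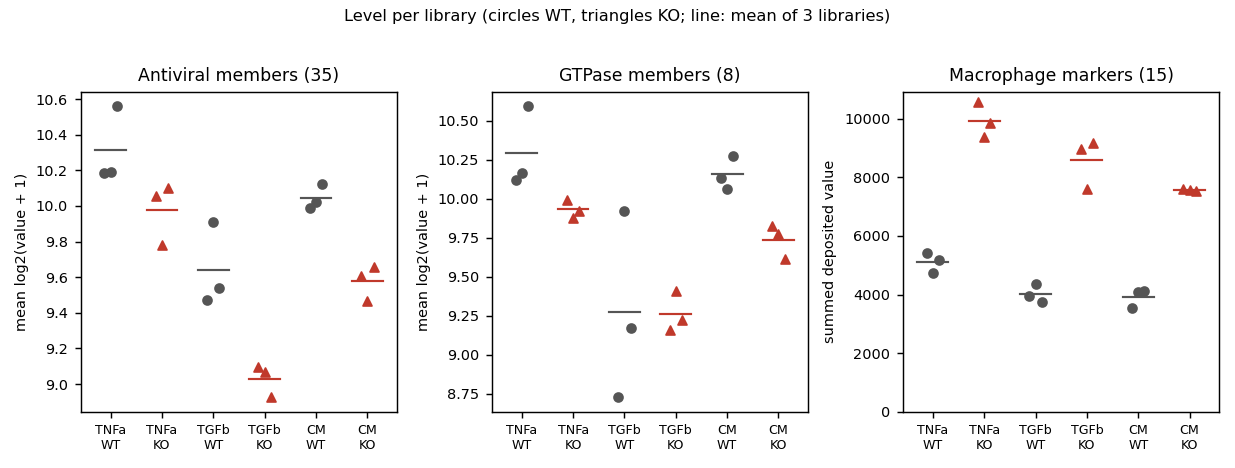
Mean log2(value + 1) of the 35 antiviral members and of the 8 GTPases in each library, and the summed deposited value of 15 macrophage markers (linear axis from 0), with WT as circles, KO as triangles and lines at the mean of 3 libraries. Antiviral means are lower in KO in every treatment, GTPase means overlap with TGFb, and the marker sums are higher in KO throughout.

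Averaged over its genes per library, the antiviral class had a mean level of 10.19 to 10.56 in TNFa WT, 9.99 to 10.13 in CM WT and 9.78 to 10.10 in TNFa KO. Lower down came TGFb WT with 9.47 to 9.91, CM KO with 9.47 to 9.66 and TGFb KO with 8.93 to 9.10. KO was below WT in every treatment without overlap, while neighbours in this order overlapped except at both ends, where TNFa WT and TGFb KO stood clear. The GTPase class gave 10.12 to 10.59 in TNFa WT, 10.06 to 10.28 in CM WT, 9.88 to 9.99 in TNFa KO, 9.61 to 9.82 in CM KO, 8.73 to 9.92 in TGFb WT and 9.16 to 9.41 in TGFb KO. With TGFb the GTPase genotypes overlapped, and Gvin1 ranged from 8.02 to 488 among those WT libraries. In WT, TNFa WT 3, TGFb WT 2 and CM WT 3 were each the highest library of their group in both classes.

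Between treatments in WT, the mean level of both classes was highest with TNFa. Against TGFb, 32 of 43 were called higher with TNFa (5.33% of all genes) and 0 lower (8.06% of all genes). Medians were 0.69 for antiviral genes and 0.66 for GTPases, against -0.004 for all genes. Without TNFa WT 3 the count was 18, without TGFb WT 1 it was 20, and with the 2 groups fitted alone 19. The 4 antiviral genes with the smallest p were Trim25 (0.65 ± 0.083), Parp14 (0.86 ± 0.11), Rnf213 (0.83 ± 0.11) and Usp18 (0.79 ± 0.11), with limma adjusted p from 9.16e-07 to 2.43e-06. As the values above show, every TNFa WT library exceeded every TGFb WT library for these 4. Of the GTPases, Gvin1 differed most (3.86 ± 0.69, adjusted p = 0.000124), by 2.41 without TGFb WT 1 and not called with the 2 groups fitted alone (0.0685). Irgm2 differed by 0.62 ± 0.14 (adjusted p = 0.00146) and Gbp2 by 0.85 ± 0.21 (adjusted p = 0.00553), the latter not without TNFa WT 3 (0.0607) or TGFb WT 3 (0.0673). Iigp1 was the GTPase not called (0.082 ± 0.12, adjusted p = 0.764).

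The mean level of both classes with CM lay in between. Against TNFa in WT, 8 members were called lower with CM (5.46% of all genes) and 0 higher (6.81% of all genes). Without TNFa WT 3, 4 were lower and Iigp1 was called higher (0.44, limma adjusted p = 0.0184). Without CM WT 2, 5 were lower, and with the groups fitted alone 4. Usp18 (-0.64 ± 0.11, limma adjusted p = 8.44e-05), Oasl1, Samd9l and Rsad2 had the smallest p among antiviral genes, and Irgm1 was the GTPase called (-0.55 ± 0.13, adjusted p = 0.00274). Oasl1 had values of 6034, 6276 and 8043 in WT and 6422, 5492 and 7065 in KO with TNFa, 4672, 5829 and 4495 in WT and 5399, 4756 and 4905 in KO with TGFb and 4596, 4646 and 4231 in WT and 4217, 3847 and 3783 in KO with CM. It was lower with CM than with TNFa by 0.58 ± 0.11 (adjusted p = 0.000319) in WT. The Rsad2 call was lost without TNFa WT 3 (0.138). Not every member followed this order: 9 of 43 had a positive difference for CM against TNFa in WT, none of them called. Stat2 was among the 9, at 0.18 ± 0.16 (limma adjusted p = 0.544).

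Against TGFb in WT, 14 members were called higher with CM (5.76% of all genes) and 0 lower (6.09% of all genes). The count was 8 without TGFb WT 1 and 9 without TGFb WT 3. Rnf213 (0.85 ± 0.11, limma adjusted p = 1.98e-06), Parp14 (0.64 ± 0.11), Stat2 (0.86 ± 0.16) and Trim25 (0.42 ± 0.083) led the antiviral genes. Gvin1 (4.23 ± 0.69, or 2.78 without TGFb WT 1) and Irgm2 (0.45 ± 0.14, adjusted p = 0.0296) were the GTPases called, and the Irgm2 call was lost without TGFb WT 1 or 3 or CM WT 1 or 3 (0.0515 to 0.162). The treatment comparisons share their groups, so they are not independent of each other.

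**Figure D4:**
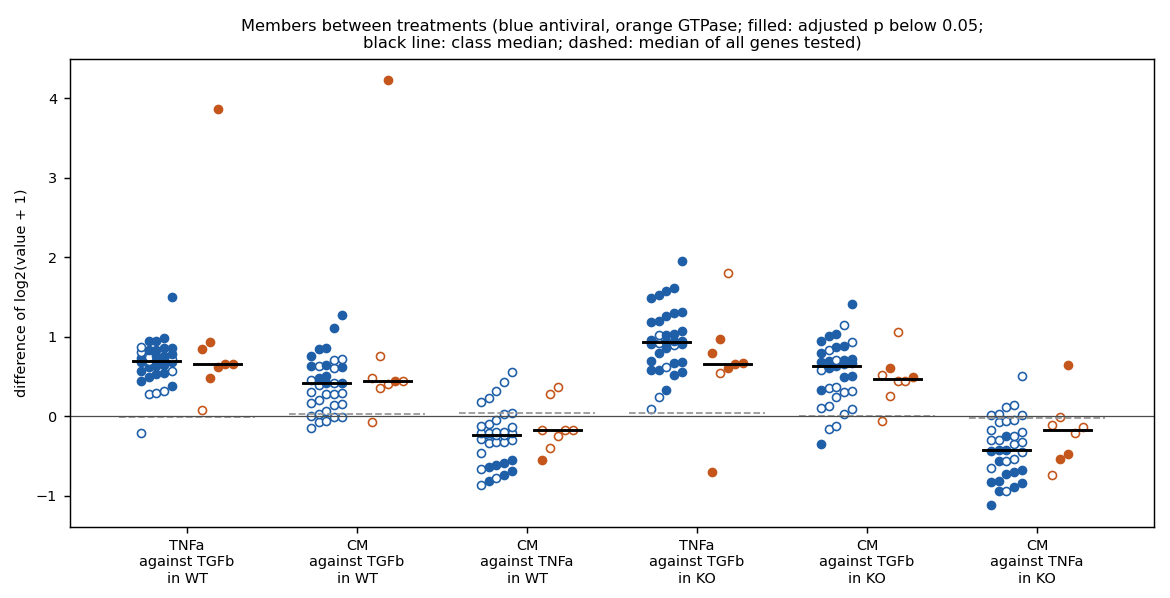
Difference of log2(value + 1) of each member between treatments, in WT and in KO, for the antiviral class (blue) and the GTPases (orange), with filled points past the adjusted p threshold of 0.05, black lines at class medians and dashed lines at the median of all genes. Most members lie above 0 for TNFa or CM against TGFb and below 0 for CM against TNFa, and Gvin1 is the point near 4 in WT.

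In KO hepatocytes most calls had the same direction as in WT. Against TGFb, 34 members were called higher with TNFa (10.1% of all genes), with a median of 0.91, and 1 was lower (12.3% of all genes), Iigp1 at -0.70 ± 0.12 (-0.45 when all libraries were scaled to equal totals). With CM against TNFa, 16 were lower (4.32%) and 1, Iigp1, was higher by 0.65 ± 0.12 (8.38% of all genes). With CM against TGFb, 20 were higher (5.20%) and 1 was lower (5.39%), Oasl1 at -0.35 ± 0.11 (limma adjusted p = 0.0381), a call lost without TGFb KO 1 or 3 or CM KO 2 or 3 (0.0755 to 0.161) and when all libraries were scaled to equal totals (0.15).

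Whether the KO difference itself depended on treatment was tested as an interaction. Between TGFb and TNFa, 2 members passed (1.10% of all genes were called in either direction). Parp14 fell further in KO with TGFb than with TNFa by 0.76 ± 0.16 (limma adjusted p = 0.0122), and Iigp1 rose further with TGFb by 0.79 ± 0.17 (adjusted p = 0.0212). Parp14 was not called without TGFb WT 2 or TGFb KO 1 (both 0.0551), and Iigp1 was not without TNFa WT 3, TNFa KO 1, TGFb WT 1, TGFb WT 3 or TGFb KO 1 (0.0529 to 0.0806). Of the 43, 14 had an unadjusted limma p under 0.05 in this comparison, as did 1879 of all 14455 genes. Between CM and TNFa no member passed (0.630% of all genes), and 7 had an unadjusted p under 0.05, as did 1922 of all 14455 genes. Between CM and TGFb none passed (0.491%), and 9 had an unadjusted p under 0.05, as did 1572 of all genes. Other settings called other members. With equal totals, Xaf1 (-0.72) and Helz2 (-0.65) also passed between TGFb and TNFa, and Parp14 (-0.71) between CM and TNFa. With the groups fitted alone, Parp14 (-0.60) and Gvin1 (-1.10) passed between CM and TNFa. With 1 library left out, Helz2 (without TNFa KO 2), Gvin1 (without TGFb WT 2) and Trim30a (without TGFb KO 2) passed between TGFb and TNFa, Parp14 (without CM WT 3) between CM and TNFa, and Gvin1 (without TGFb WT 2) between CM and TGFb.

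Among the 34 members with a promoter window, the KO difference was set beside the response-element letters as a description. The 17 with a match had median differences of -0.45 (TNFa), -0.71 (TGFb) and -0.45 (CM). Of them, 6, 9 and 7 were called lower. The 17 without a match had medians of -0.26, -0.50 and -0.44, and 4, 10 and 8 were called lower. No test was made of this split.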

How the data were processed

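RNA was sequenced from 18 libraries in 6 groups of 3, per the labels' protocols. The submitters' processing notes name STAR 2.7.8a, Partek, DESeq2 and the mm39 build, with no roles; annotation, strand setting and filters were not stated. The authors deposited 1 table of normalized signal per gene, scaled with DESeq2 per the file name. Only 72.0% to 77.4% of low values fell on whole read steps, so no count test was run. From these signals log2(value + 1) was computed and fitted in limma 3.58.1 (R 4.3.3) with 6 group means, a trend and 12 residual degrees of freedom, over the 14455 of 16873 genes for which 3 or more libraries had values of 10 or higher. A two-sided Benjamini-Hochberg adjusted p below 0.05 was called. The method was tested on simulated data. Values in all libraries are given for 9 members chosen for their roles and, in each comparison of KO with WT and of treatments in WT, for up to 4 antiviral members and 3 GTPases with the smallest p among those called, and for called members that went against their class. Genes outside the members are named from the called genes with the smallest p, up to 4 per list and comparison, and not all of these are named or reported here. Members, lists and tests were chosen with earlier results of these data known. Same-numbered libraries were checked for pairing: 45 correlations of their deviations ran from -0.068 to 0.054, so none was paired. Alternatives were another pseudocount, filter, scaling, block or set of fitted groups, and each library left out in turn. Promoter windows came from RefSeq on GRCm38.p6, and gene positions are those of the deposited table on mm39.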

Additional observations from a re-analysis of the deposited data

Results flagged for a closer look

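In 2 of 43 members the KO difference was called different between TGFb and TNFa by an interaction test (1.10% of all genes). Parp14 was lower in KO by a further 0.76 on the log2(value + 1) scale with TGFb than with TNFa (-0.76 ± 0.16, limma adjusted p = 0.0122), with every KO library below every WT library in both treatments. Iigp1 differed by 0.785 ± 0.17 between the same treatments (limma adjusted p = 0.0212), with overlapping genotypes with TNFa and every KO library higher with TGFb. Both calls depended on single libraries. The Parp14 call was lost without TGFb WT 2 or TGFb KO 1 (both 0.0551). That of Iigp1 was lost without TNFa WT 3, TNFa KO 1, TGFb WT 1, TGFb WT 3 or TGFb KO 1 (0.0529 to 0.0806).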

How the results depend on the processing

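No called difference changed direction: of 1912 values of called members under other settings 69 lost the call and 0 reversed. Of 1692 values with 1 library left out, 212 lost it and 0 reversed. Only called differences were followed, which already lay away from 0, and the direction of differences not called was not checked. The GTPase medians of the interactions crossed 0 over the settings: -0.049 to 0.381 (TGFb with TNFa), -0.06 to 0.195 (CM with TNFa) and -0.198 to 0.11 (CM with TGFb). Fitting only the groups compared gave 7 members called in KO against WT with TNFa, 19 for TNFa against TGFb in WT, 4 for CM against TNFa in WT and 2 for the interaction of CM with TNFa. Scaling to equal totals gave 4 and 1 for the interactions of TGFb and of CM with TNFa; the causes were not tested. In KO, that scaling moved calls over all genes from 1458 higher and 1779 lower to 3756 and 1119 for TNFa against TGFb (median 0.29), from 1211 and 624 to 878 and 1906 for CM against TNFa (median -0.17), and from 751 and 779 to 1241 and 491 for CM against TGFb (median 0.10). In WT it moved them from 771 and 1165 to 1366 and 873 for TNFa against TGFb (median 0.11), from 985 and 789 to 857 and 1062 for CM against TNFa, and from 832 and 880 to 1102 and 626 for CM against TGFb. Averaged over treatments, KO calls moved from 1614 and 1377 to 1365 and 2009. Interaction calls with TNFa moved from 123 and 36 to 42 and 101 for TGFb (median -0.16), and from 83 and 8 to 26 and 16 for CM (median -0.13).

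With 1 library left out, the members called in KO against WT ranged from 4 to 13 with TNFa, 21 to 27 with TGFb, 11 to 14 with CM and 31 to 33 on average. In WT they ranged from 18 to 35 for TNFa against TGFb, 5 to 9 for CM against TNFa and 8 to 19 for CM against TGFb, and in KO from 29 to 36, 12 to 17 and 15 to 22. The interactions gave 0 to 3 for TGFb with TNFa, 0 to 1 for CM with TNFa and 0 to 1 for CM with TGFb. A replicate block, whose numbers the data do not pair, gave 11, 25 and 18 members called in KO against WT with TNFa, TGFb and CM, and kept 208 of 216 calls. Depth is an estimate, and 3 libraries per group limit precision.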
